A study of Mus musculus with 6 samples.

Results

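Respiratory complex I, or NADH:ubiquinone oxidoreductase, is the largest enzyme of the mitochondrial electron transport chain. It takes electrons from NADH, passes them along a chain of iron-sulfur clusters to ubiquinone and couples this to the pumping of protons across the inner mitochondrial membrane. The complex has a peripheral arm in the matrix, with the N module that oxidizes NADH and the Q module that reduces ubiquinone, and a membrane arm that pumps protons. Its core subunits are shared with bacteria and are encoded partly in the nucleus and partly in mitochondrial DNA, while the accessory subunits around them are all encoded in the nucleus. Slow oxidative muscle such as the soleus, a calf muscle rich in mitochondria, depends on this enzyme for sustained work.

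The members described here are the genes whose symbol in the deposited normalized table starts with *Nduf* followed by the letter a, b, c, s, v or ab and a number, which leaves out the *Ndufaf* assembly factors. The rule found 41 rows, which are 40 genes of the 16180 genes in that table, because the rows *Ndufb4* and *Ndufb4c* carry the same identifier (ENSMUSG00000022820) and the same values. By their place in the complex they fall into 3 N module core subunits, 4 Q module core subunits, 9 accessory subunits of the peripheral arm, 21 accessory subunits of the membrane arm, the pair *Ndufa4* and *Ndufa4l2*, and the pseudogene *Ndufa12-ps*. The rule used no measured value. Of the 40 genes, 39 passed the filter on low counts and were tested among 14696 genes, and *Ndufa12-ps*, with a handful of reads per mouse, did not.

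RNA was sequenced from the soleus of 3 mice heterozygous for a *Mustn1* KO-first allele (HET) and 3 wild-type mice (WT), which the study describes as littermates. All 6 were C57BL6/N mice, 8 weeks of age, with 1 poly-A enriched, stranded library of single reads of 50 bases per mouse. *Mustn1* encodes a microprotein of muscle tissue. The KO-first allele is carried in every cell of the body. It disrupts *Mustn1* with a gene-trap cassette (lacZ reporter and neomycin selection marker) to which the first exon is spliced. The HET mice thus keep a normal copy and also carry this cassette, while WT mice carry only normal copies and no cassette. The labels give the mice as male, but every library held between 3858 and 9154 reads on *Xist*, which is transcribed from an inactive X chromosome, and between 0 and 12 reads over the Y-linked *Ddx3y*, *Kdm5d*, *Uty* and *Eif2s3y*, with no difference between the genotypes in this respect. *Nnt*, a mitochondrial gene partly deleted in the related strain C57BL/6J, had between 36 and 64 reads per library. A low count over the whole gene cannot show whether a part of it is deleted, so it does not settle the strain.

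The question of the comparison is how the soleus transcriptome of mice with 1 disrupted copy of *Mustn1* differs from that of WT littermates, here for complex I. *Mustn1* itself was at 14.2 ± 2.33 CPM (SD, n = 3) in HET and 27.5 ± 3.89 CPM (SD, n = 3) in WT mice, and edgeR's quasi-likelihood test gave it a log2 fold change of −0.96 ± 0.15 (± standard error, as for all log2 fold changes below) with a Benjamini-Hochberg adjusted p of 0.0452. CPM are read counts divided by the library's reads on genes, scaled between libraries with TMM factors to a common total, and all log2 fold changes below are HET minus WT. The libraries held between 26790075 and 50368796 reads on genes, of which the 39 tested members took between 0.627% and 0.733%. A single member had between 53 and 37014 reads in a mouse, and 34 of the 39 had at least 1000 reads in each of the 6 mice. The slow fiber markers *Myh7* and *Tnni1* were high in every library, at between 13640 and 14770 CPM for *Myh7*. HET mouse 3 stood apart from the other 5 mice for most members, so that results are given with and without it.

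Many genes of the respiratory chain carry short words near their transcription start that match the preferred sites of a few transcription factors. RefSeq promoters of build GRCm38.p6, from 250 bases before to 50 bases after the start, were at hand for 34 of the 40 members. The word AAGATGGC, searched on both strands as a match to the site of YY1, was present in 7 of the 34 (20.6%) and in 3.19% of all 27025 genes with a promoter in the same table. In all 7 it read in the direction of transcription and began between 23 and 39 bases after the start. Its ATG was the annotated start codon in all 7, so that the word also spells the first codons of the protein. The share over all genes was not limited to genes whose start codon lies in the window. With the window cut to the 250 bases before the start, 0 of the 34 members and 1.83% of all genes held the word. The stretches around the word are shown because they share the word and its position, with the word in capitals:
Ndufa3 (chr7:3617384-3617413, plus strand): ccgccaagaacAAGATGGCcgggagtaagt
Ndufa9 (chr6:126849097-126849126, minus strand): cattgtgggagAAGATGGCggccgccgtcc
Ndufb8 (chr19:44555393-44555422, minus strand): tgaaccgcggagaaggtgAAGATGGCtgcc
Ndufc1 (chr3:51408915-51408944, minus strand): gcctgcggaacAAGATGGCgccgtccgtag
Ndufs4 (chr13:114388045-114388074, minus strand): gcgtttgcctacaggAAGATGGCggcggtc
Ndufs6 (chr13:73328433-73328462, minus strand): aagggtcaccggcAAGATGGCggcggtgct
Ndufs7 (chr10:80249462-80249491, plus strand): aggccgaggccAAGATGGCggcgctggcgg

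The words GCGCATGC and GCGCACGC, matches to the site of NRF-1 (nuclear respiratory factor 1), were found on either strand in 4 of 34 member promoters (11.8%) and in 6.08% of all promoters. All 4 lay before the transcription start, and the *Ndufa11* promoter held 3 overlapping copies. The stretches with the words in capitals are:
Ndufa11 (chr17:56717695-56717724, plus strand): gcactgcGCGCATGCGCGCACGCcttgtct
Ndufa6 (chr15:82354356-82354385, minus strand): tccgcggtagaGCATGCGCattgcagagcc
Ndufa8 (chr2:36049328-36049357, minus strand): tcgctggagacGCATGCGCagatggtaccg
Ndufb4 (chr16:37654541-37654570, minus strand): cgagaagcagtGCGCACGCgcagaatacgc

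The ETS word CCGGAAGT, which matches the site of GABP, was in 1 member promoter, that of *Ndufs3* (2.94%, against 4.31% of all promoters), and the ERR word TCAAGGTCA in 0 of the 34 (0.466% of all promoters). A match is a description of the letters and says nothing of binding in this muscle.

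No member differed between the genotypes at an adjusted p below 0.05 with edgeR, in either direction. Over all genes tested, 1 gene was lower in HET mice at this threshold (0.00680%) and 21 were higher (0.143%). The lowest adjusted p among the members was 0.489, for *Ndufa12*. All the same, 38 of the 39 members had a log2 fold change below 0 (97.4%), where 54.4% of all genes tested did, and the exception was *Ndufa4l2*. In bulk tissue, fewer cells of a type and less RNA per cell cannot be told apart. The median over the members was −0.16 with a median standard error of 0.11, and the median over all genes tested was −0.02. At an unadjusted p below 0.05, 6 members were lower with edgeR (15.4%, against 2.0% of all genes tested) and 0 were higher. They were *Ndufa12*, *Ndufb4*, *Ndufs4*, *Ndufc2*, *Ndufc1* and *Ndufb2*. For the other 33 members the 95% interval of the log2 fold change included 0, and for 27 of the 39 it lay between −0.5 and 0.5.

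All HET mice were below all WT mice in 9 of the 39 members (23.1%), and 6.02% of all genes tested had this pattern. For a single gene, the smallest p of an exact permutation test, two-sided, is 0.1 at 3 against 3. These 9 were *Ndufv2* of the N module, *Ndufa12*, *Ndufs4* and *Ndufa9* of the peripheral arm, and *Ndufb4*, *Ndufc1*, *Ndufc2*, *Ndufb5* and *Ndufab1* of the membrane arm. In none of the 39 was every HET mouse above every WT mouse.

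The HET mice differed among themselves. HET mouse 3 had the lowest value of all 6 mice in 34 of the 39 members (87.2%), where it was the lowest for 21.3% of all genes tested, and it was below every WT mouse in 36 members (92.3%, against 31.6% of all genes tested). HET mouse 1 was below every WT mouse in 24 members (61.5%, against 24.3%), and HET mouse 2 in 13 (33.3%, against 31.2%). Both HET mouse 1 and HET mouse 2 were below every WT mouse in 9 members (23.1%, against 9.76% of all genes tested), which are the 9 named above. Set against the mean of the 3 WT mice, the median member was at −0.09 on the log2 scale in HET mouse 1, at 0.0019 in HET mouse 2 and at −0.39 in HET mouse 3, and between −0.05 and 0.04 in the WT mice. HET mouse 2 had the highest value of the 6 mice in 14 members. The coefficient of variation was larger among HET than among WT mice in 37 of the 39 members (94.9%, against 57.0% of all genes tested), with medians of 14.8% and 5.46%, and of 12.6% and 10.6% over all genes tested.

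**Figure D1:**
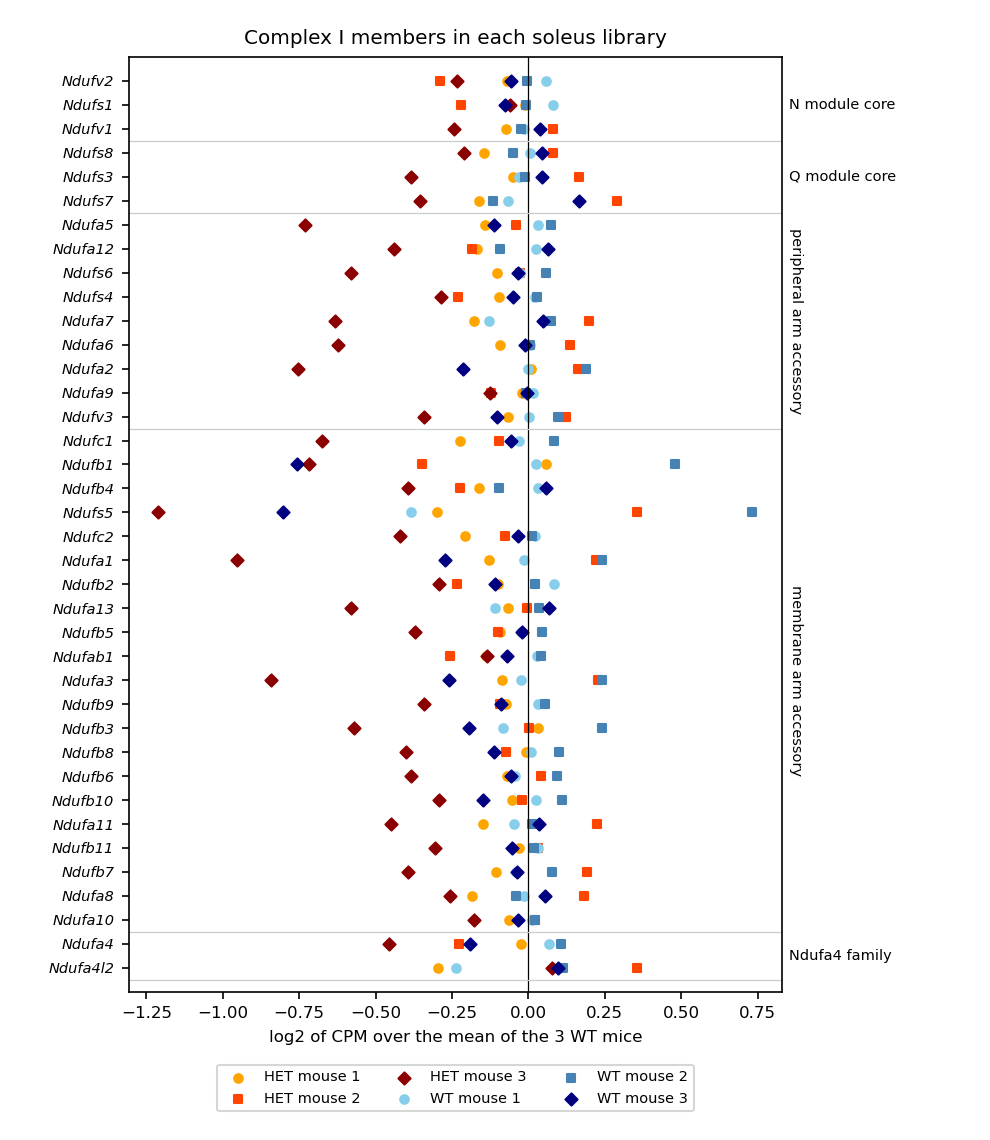
Each of the 38 rows is a tested member and each symbol a mouse, placed by the log2 of its CPM over the mean of the 3 WT mice, with HET mice in warm and WT mice in blue colors and the members grouped by their place in the complex. HET mouse 3 is the lowest of the 6 mice in 33 of the 38 rows. Over all 39 tested members, HET mouse 1 was below every WT mouse in 24 and HET mouse 2 in 13.

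Without HET mouse 3, 22 of the 39 members were below 0 (56.4%), close to the 50.6% of all genes tested in the same fit, the median member was at −0.02 and 0 members had an unadjusted p below 0.05, while 1.27% of all genes had one and were lower. Other single mice also moved some of these summaries. Without HET mouse 2, 14 members were lower at an unadjusted p below 0.05, against 3.09% of all genes in that fit. Without WT mouse 1 there were 0 such members, against 1.11% of all genes, but the median member stayed at −0.16, with 39 members below 0. Without WT mouse 2 there were 2, against 2.11% of all genes, and the median member was at −0.10. No member passed the adjusted threshold in any of these fits.

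**Figure D2:**
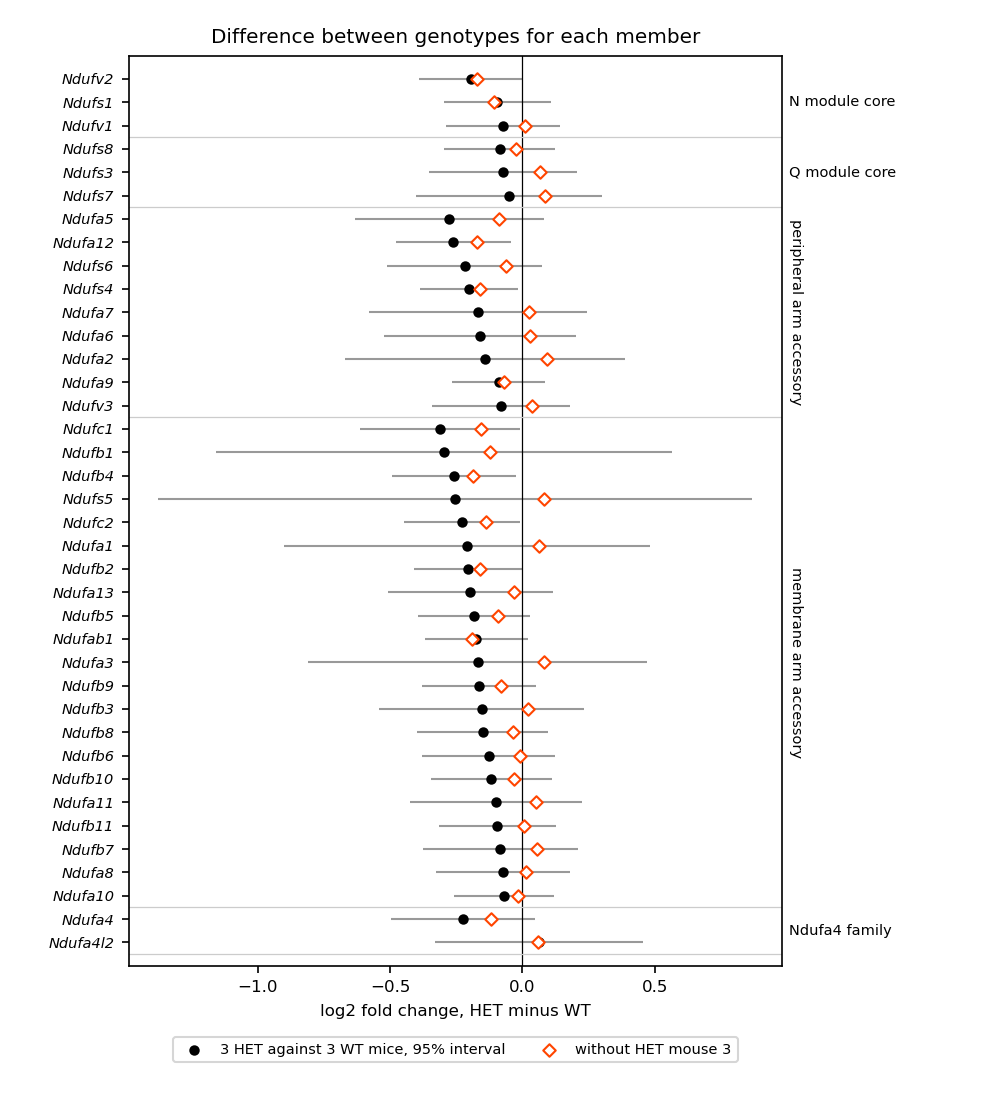
The log2 fold change of 38 tested members is drawn as a black point with its 95% interval from the fit of 3 HET against 3 WT mice, and as an open diamond from the fit without HET mouse 3. Black points lie below 0 for 37 of the 38 members, and the open diamonds lie on both sides, with 22 below 0.

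The N module holds the entry site for electrons. *Ndufv1* (chromosome 19, 4007497 to 4012806) encodes the subunit with the flavin that takes electrons from NADH, and it was at 553, 616 and 492 CPM in HET mice 1 to 3 and 576, 572 and 598 CPM in WT mice 1 to 3. HET mouse 3 was the lowest and HET mouse 2 the highest of the 6, and the log2 fold change was −0.07 ± 0.10 (edgeR adjusted p = 0.931) and 0.0094 without HET mouse 3. *Ndufs1* (chromosome 1, 63143596 to 63176833), the largest subunit, which carries several iron-sulfur clusters, was at 771, 665 and 744 CPM in HET mice 1, 2 and 3, against 821, 771 and 736 CPM in the WT mice in the same order. Here HET mouse 2 was the lowest and the genotypes overlapped, with a log2 fold change of −0.09 ± 0.09 over all mice and −0.11 without HET mouse 3. *Ndufv2* (chromosome 17, 66078795 to 66101559), which carries an iron-sulfur cluster beside the flavin, was the only core subunit with every HET mouse below every WT mouse, at 358, 308 and 319.9 CPM in HET mice 1 to 3 and 392, 375 and 362 CPM in WT mice 1 to 3. Its level was 329 ± 26.2 CPM (SD, n = 3) in HET and 376 ± 15.2 CPM (SD, n = 3) in the WT mice, a log2 fold change of −0.20 (95% interval from −0.39 to 0.0015, edgeR adjusted p = 0.651). Without HET mouse 3 it was −0.17.

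The 4 nuclear core subunits of the Q module carry the last clusters of the chain and form the ubiquinone site. They were nearest to 0 of all groups, with a median log2 fold change of −0.06. *Ndufs7* (chromosome 10, 80249121 to 80256794), which holds the last cluster before ubiquinone, was at 183, 251 and 160.2 CPM in HET mice 1, 2 and 3, against 196, 189 and 230.0 CPM in the WT mice in the same order. HET mouse 2 was the highest and HET mouse 3 the lowest of the 6, and the log2 fold change was −0.05 ± 0.16 (edgeR adjusted p = 0.975). The same order of the HET mice held for *Ndufs3* (chromosome 2, 90894634 to 90904827), a scaffold of the early assembly intermediate, at 67.2, 78.1 and 53.3 CPM in HET mice 1 to 3 and 68.1, 69.0 and 71.7 CPM in WT mice 1 to 3. *Ndufs8* (chromosome 19, 3908870 to 3912717), which carries a pair of clusters, was at 145, 169 and 138 CPM in HET mice 1, 2 and 3, against 161, 154 and 165 CPM in the WT mice in the same order, with a log2 fold change of −0.09 ± 0.09. Without HET mouse 3, the values were above 0 for *Ndufs3* (0.06) and *Ndufs7* (0.08) and −0.02 for *Ndufs8*.

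Among the 9 accessory subunits of the peripheral arm, all 9 log2 fold changes were below 0, between −0.28 for *Ndufa5* and −0.08 for *Ndufv3*, with a median of −0.17, and 2 had an unadjusted p below 0.05 with edgeR. *Ndufa12* (chromosome 10, 94198955 to 94221443), which takes the place of the assembly factor Ndufaf2 late in assembly, had the smallest p of the members. It was at 61.9, 61.1 and 51.2 CPM in HET mice 1 to 3 and 70.8, 65.2 and 72.7 CPM in WT mice 1 to 3, without overlap, and HET mouse 3 was the lowest. The level was 58.1 ± 5.96 CPM (SD, n = 3) in HET and 69.5 ± 3.91 CPM (SD, n = 3) in the WT mice, a log2 fold change of −0.26 (95% interval from −0.48 to −0.04, edgeR adjusted p = 0.489), and −0.17 without HET mouse 3.

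*Ndufs4* (chromosome 13, 114287795 to 114388094), whose loss in mice gives a model of Leigh syndrome, was at 172, 156 and 151 CPM in HET mice 1, 2 and 3, against 187, 187 and 177 CPM in the WT mice in the same order. The HET mice were again all below the WT mice, at 159.6 ± 11 CPM (SD, n = 3) in HET and 184 ± 5.62 CPM (SD, n = 3) in the WT mice, with a log2 fold change of −0.20 (95% interval from −0.39 to −0.02, edgeR adjusted p = 0.580) and of −0.16 without HET mouse 3. *Ndufa9* (chromosome 6, 126821721 to 126849136), a subunit at the junction with the membrane arm, was at 394, 367 and 366 CPM in HET mice 1 to 3 and 404, 397 and 398 CPM in WT mice 1 to 3. The gap between the genotypes was small but the WT mice lay close together, and the log2 fold change was −0.09 ± 0.08 (edgeR adjusted p = 0.885) and −0.07 without HET mouse 3.

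*Ndufa5* (chromosome 6, 24518666 to 24528013) was at 92.7, 99.4 and 61.6 CPM in HET mice 1, 2 and 3, against 105, 108 and 94.7 CPM in the WT mice in the same order. HET mouse 2 was within the WT range and HET mouse 3 far below it, and the log2 fold change moved from −0.28 ± 0.16 to −0.09 when HET mouse 3 was left out. The same held for *Ndufs6*, a zinc-binding subunit that joins the N module to the Q module (−0.22, and −0.06 without HET mouse 3). *Ndufa2*, *Ndufa6*, *Ndufa7* and *Ndufv3* were between −0.17 and −0.08 over all mice and above 0, between 0.02 and 0.09, without HET mouse 3. *Ndufa6* is a protein of the LYR family that binds an acyl carrier protein. In HET mice 1 to 3 *Ndufa6* was at 104, 122 and 72.0 CPM, and in WT mice 1 to 3 at 111, 111 and 110.0 CPM.

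The 21 accessory subunits of the membrane arm all had log2 fold changes below 0, with a median of −0.17, and 4 had an unadjusted p below 0.05 with edgeR. The lowest log2 fold change was that of *Ndufc1* (chromosome 3, 51404677 to 51408988), a small subunit with a single membrane span, at 55.2, 60.4 and 40.4 CPM in HET mice 1 to 3 and 63.2, 68.4 and 62.1 CPM in WT mice 1 to 3. All HET mice were below all WT mice, at 52.0 ± 10.4 CPM (SD, n = 3) in HET and 64.6 ± 3.37 CPM (SD, n = 3) in the WT mice, with a log2 fold change of −0.31 (95% interval from −0.62 to −0.01, edgeR adjusted p = 0.622) and −0.16 without HET mouse 3. *Ndufc2* (chromosome 7, 97400003 to 97407802), its partner in the membrane, was at 90.0, 98.4 and 77.5 CPM in HET mice 1, 2 and 3, against 105, 105 and 102 CPM in the WT mice in the same order, also without overlap. The log2 fold change was −0.23 (95% interval from −0.45 to −0.01, edgeR adjusted p = 0.613), and −0.14 without HET mouse 3.

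*Ndufb4* (chromosome 16, 37647170 to 37654453) was at 20.5, 19.7 and 17.5 CPM in HET mice 1 to 3 and 23.5, 21.5 and 23.9 CPM in WT mice 1 to 3. Its HET mice were below its WT mice, with a log2 fold change of −0.26 (95% interval from −0.49 to −0.03, edgeR adjusted p = 0.572), and −0.19 without HET mouse 3. Of the 50-base windows of its transcript, 37.0% occur exactly in an annotated pseudogene, and reads that match several places were not counted. *Ndufb5* (chromosome 3, 32736990 to 32751566) was at 273, 272 and 225 CPM in HET mice 1, 2 and 3, against 286, 299.9 and 287 CPM in the WT mice in the same order, and HET mouse 3 was well below the other HET mice. For *Ndufb5* the log2 fold change was −0.18 ± 0.10 (edgeR adjusted p = 0.754), and for *Ndufb2* it was −0.21 (95% interval from −0.41 to −0.0031, edgeR adjusted p = 0.633), with HET mouse 1 of *Ndufb2* within the WT range. They were at −0.09 and −0.16 without HET mouse 3.

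*Ndufab1* (chromosome 7, 122085403 to 122101886) encodes the mitochondrial acyl carrier protein, which also serves mitochondrial fatty acid synthesis and sits at more than one place in the complex. It was at 39.1, 36.1 and 39.2 CPM in HET mice 1 to 3 and 43.9, 44.3 and 41.0 CPM in WT mice 1 to 3. HET mouse 2 was the lowest, HET mouse 3 was close to HET mouse 1, and all were below the WT mice, with a log2 fold change of −0.17 (95% interval from −0.37 to 0.02, edgeR adjusted p = 0.724) and −0.19 without HET mouse 3. *Ndufb9* (chromosome 15, 58933810 to 58939489), a LYR protein that binds the second acyl carrier protein, was at 379, 374 and 315 CPM in HET mice 1, 2 and 3, against 408, 414 and 375 CPM in the WT mice in the same order. HET mouse 1 was above WT mouse 3, so that the genotypes overlapped, and the log2 fold change was −0.16 ± 0.10 (edgeR adjusted p = 0.801) and −0.08 without HET mouse 3.

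*Ndufb1* (chromosome 12, 101968090 to 101977068) varied within the genotypes more than between them, at 49.2, 37.1 and 28.7 CPM in HET mice 1 to 3 and 48.0, 65.8 and 27.9 CPM in WT mice 1 to 3, so that its log2 fold change of −0.30 had a 95% interval from −1.16 to 0.56. The reference annotation used here, GENCODE M21, names its identifier ENSMUSG00000113902 *Ndufb1-ps*. *Ndufs5* (chromosome 4, 123712710 to 123718202), a subunit on the side of the intermembrane space, was at 2.27, 3.58 and 1.21 CPM in HET mice 1, 2 and 3, against 2.14, 4.65 and 1.60 CPM in the WT mice in the same order. The log2 fold change of −0.25 had the widest 95% interval of the members (from −1.38 to 0.87), which reaches far to both sides of 0. When HET mouse 3 was left out, *Ndufb1* was at −0.12 and *Ndufs5* at 0.08.

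The other 12 membrane arm subunits lay between −0.21 for *Ndufa1*, an X-linked subunit needed for assembly of the membrane arm, and −0.07 for *Ndufa10*, a relative of nucleoside kinases. In between were *Ndufa3*, *Ndufa8*, *Ndufa11*, *Ndufa13* (also known as GRIM-19), *Ndufb3*, *Ndufb6*, *Ndufb7*, *Ndufb8*, *Ndufb10* and the X-linked *Ndufb11*. Their adjusted p-values from edgeR lay between 0.855 and 0.944. *Ndufa1* had one of the largest spreads, at 41.3, 52.6 and 23.3 CPM in the HET and 44.7, 53.3 and 37.4 CPM in the WT mice, and its log2 fold change without HET mouse 3 was 0.06.

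*Ndufa4* carries a complex I name but its protein has been reassigned to complex IV, cytochrome c oxidase. *Ndufa4* (chromosome 6, 11900292 to 11907497) was at 355, 308 and 263 CPM in HET mice 1 to 3 and 378, 389 and 316 CPM in WT mice 1 to 3, with HET mouse 1 within the WT range, and its log2 fold change was −0.23 ± 0.12 (edgeR adjusted p = 0.768) and −0.12 without HET mouse 3. *Ndufa4l2* (chromosome 10, 127514967 to 127517154), a paralog induced by hypoxia in other cells, was the member with the highest log2 fold change, at 0.06 (95% interval from −0.33 to 0.46, edgeR adjusted p = 0.971). It was at 7.48, 11.7 and 9.69 CPM in HET mice 1, 2 and 3, against 7.79, 9.93 and 9.83 CPM in the WT mice in the same order, with full overlap, and the log2 fold change without HET mouse 3 was 0.06.

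The size of the deviation in HET mouse 3 went with transcript length. Complex I transcripts are short, with a median counted exon length of 1334 bases against 4048 bases over all genes tested and a median principal transcript of 908 bases. The 13 members with a transcript of 700 bases or less were at a median of −0.58 in HET mouse 3 relative to the WT mean, and the 9 members of 1500 bases or more at −0.23. In HET mouse 2 the order was the opposite, with 0.16 for the short and −0.22 for the long members, and in HET mouse 1 both were close, at −0.10 and −0.07. Across the 39 members, Spearman's rho between transcript length and the log2 ratio to the mean of the 6 mice was 0.713 in HET mouse 3, −0.533 in HET mouse 2 and 0.017 in HET mouse 1, and −0.482 to 0.212 in the WT mice. These are descriptions across genes of a single library, which share its RNA and depth and are not independent replicates.

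The same order by length was present over all genes, with counted exon length in place of principal transcript length. The smooth trend of a library's deviation on counted exon length was at −0.20 for genes of 500 bases in HET mouse 3. In the other 5 mice it was between −0.01 and 0.13. With each library's trend on counted exon length removed, 37 of the 39 members were below 0, and the median was −0.09 against −0.01 over all genes. In the fit without this step, 54.4% of all genes were below 0. With edgeR, 3 members were lower at an unadjusted p below 0.05, against 1.86% of all genes, and 0 had an adjusted p below 0.05. *Ndufa1*, with 419 bases by both lengths, moved from −0.21 to −0.07. *Ndufb7*, with 623 bases of principal transcript and 4522 of counted exons, was at −0.083 before and −0.088 after. This step can therefore leave part of the order by principal transcript length in place.

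**Figure D3:**
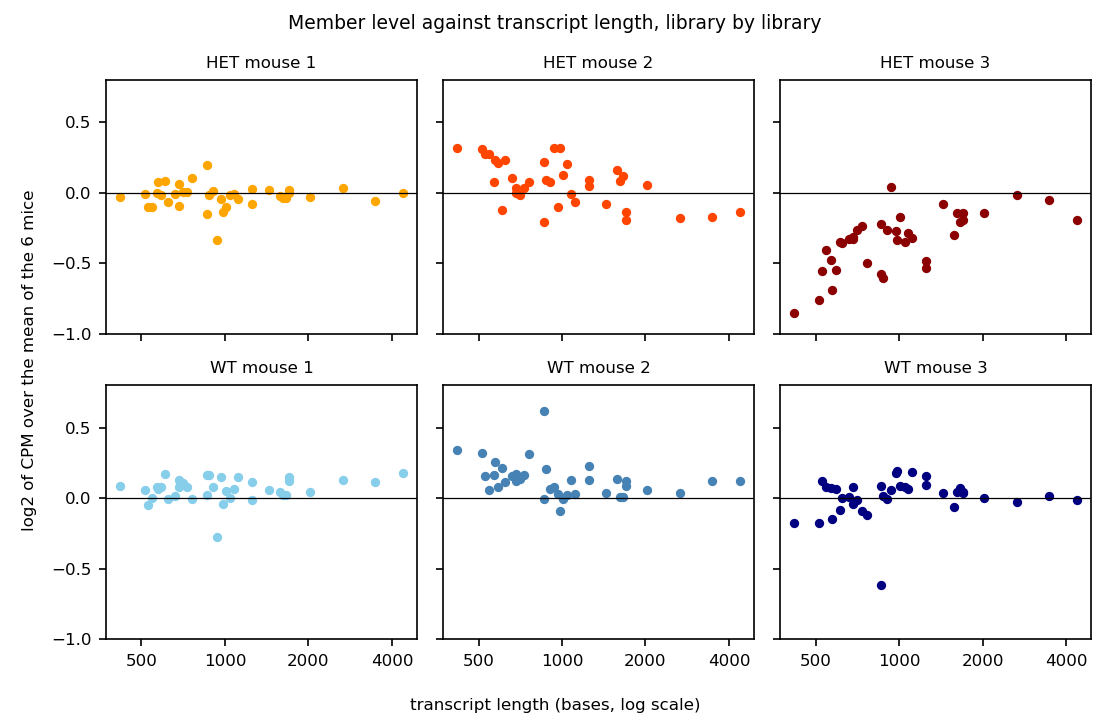
Each panel is a library and each point a member, with the length of its principal transcript in bases on a log axis and the log2 of its CPM over the mean of the 6 mice on the other; *Ndufs5* is left out for its low counts. In HET mouse 3 the shortest transcripts lie lowest (rho = 0.713), in HET mouse 2 they lie highest (rho = −0.533), and in HET mouse 1 there is no slope (rho = 0.017).

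The subunits encoded in mitochondrial DNA gave a different picture across the mice. These 7 genes (*mt-Nd1* to *mt-Nd6* and *mt-Nd4l*) encode the proton-pumping core of the membrane arm. *mt-Nd3* and *mt-Nd4l* were listed with 0 reads in all 6 libraries, so that 5 were tested. All 5 were below 0, as were 54.4% of all genes tested, with a median log2 fold change of −0.31. *mt-Nd1* was at 15080, 12240 and 14320 CPM in HET mice 1 to 3 and 17910, 17570 and 15830 CPM in WT mice 1 to 3. *mt-Nd2* was at 12810, 10490 and 11760 CPM in HET mice 1, 2 and 3, against 15230, 15330 and 13250 CPM in the WT mice in the same order. For both genes all HET mice were below all WT mice and HET mouse 2, not HET mouse 3, was the lowest.

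The log2 fold changes were −0.30 for *mt-Nd1*, −0.32 for *mt-Nd2*, −0.31 for *mt-Nd4* and −0.31 for *mt-Nd5*, with standard errors between 0.10 and 0.11, and in each of the 4 the genotypes did not overlap. None passed the threshold, with edgeR adjusted p-values between 0.351 and 0.442, and all 4 had an unadjusted p below 0.05. *mt-Nd6*, the only one of them on the other strand, was at 132, 168 and 108 CPM in HET mice 1 to 3 and 217, 256 and 48.9 CPM in WT mice 1 to 3, with a log2 fold change of −0.36 ± 0.66. Without HET mouse 3 the median of the 5 was −0.32, and 4 were lower at an unadjusted p below 0.05 with edgeR, against 1.27% of all genes. With any single mouse left out the median lay between −0.38 and −0.22. With each library scaled to sarcomere genes the median was −0.23 and 0 had an unadjusted p below 0.05.

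**Figure D4:**
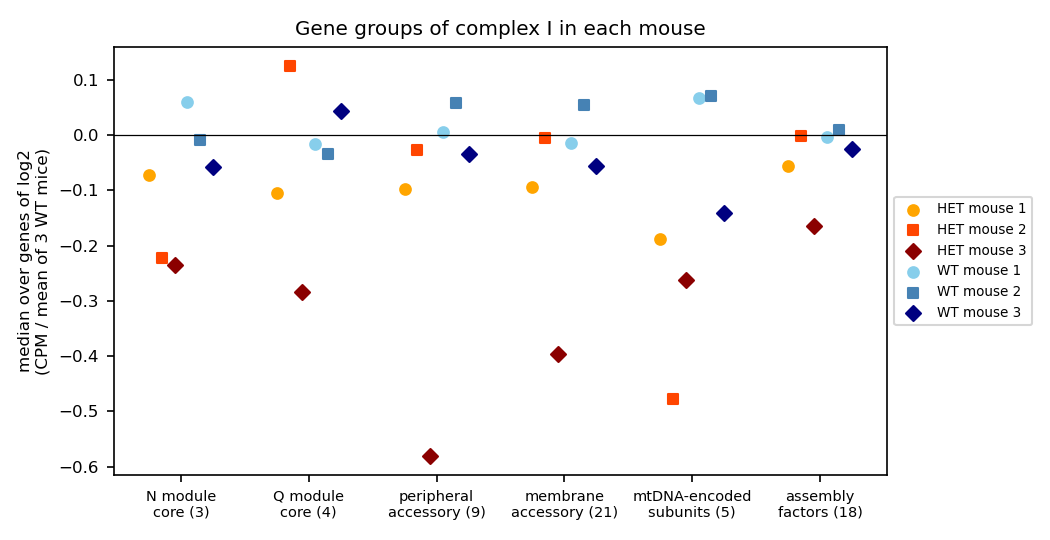
Each symbol is the median, over the genes of a group, of log2 of a mouse's CPM over the mean of the 3 WT mice, with the number of genes tested under each group. HET mouse 3 is lowest in the 4 nuclear groups and in the assembly factors, at −0.58 for the peripheral accessory subunits, and HET mouse 2 is lowest for the mitochondrially encoded subunits, at −0.48.

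Assembly factors build the complex from its modules and do not stay in it. Of the 19 listed, 18 had a gene in the count table and all 18 were tested. Of these, 14 were below 0, where 54.4% of all genes tested were, with a median log2 fold change of −0.08 and 0 past the threshold. At the ends were *Ndufaf5* and *Nubpl*, which delivers iron-sulfur clusters. *Ndufaf5*, which hydroxylates Ndufs7, was at 26.9, 27.4 and 24.0 CPM in HET mice 1 to 3 and 33.8, 32.0 and 29.9 CPM in WT mice 1 to 3. All its HET mice were below all its WT mice, as in 6.02% of all genes tested. Its log2 fold change was −0.29 ± 0.10 (edgeR adjusted p = 0.416) and −0.23 without HET mouse 3. *Nubpl* was at 0.07 ± 0.18 (edgeR adjusted p = 0.969). Without HET mouse 3 the median of the 18 was −0.01, with 11 below 0, where 50.6% of all genes in that fit were.

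The regulators of mitochondrial biogenesis include the coactivator PGC-1α (*Ppargc1a*) and the factors that transcribe mitochondrial DNA. All 11 were tested, 0 passed the threshold, and 5 were below and 6 above 0, with a median log2 fold change of 0.05. They ranged from −0.29 for *Tfb2m* ± 0.15 (edgeR adjusted p = 0.766), a transcription factor of mitochondrial DNA, to 0.12 for *Esrra* ± 0.13 (edgeR adjusted p = 0.912), which encodes the nuclear receptor ERRα. *Tfb2m* was at 7.11, 8.20 and 6.13 CPM in HET mice 1, 2 and 3, against 9.63, 8.90 and 7.66 CPM in the WT mice in the same order, with HET mouse 2 within the WT range. *Yy1* and *Nrf1*, whose sites were searched in the promoters above, were at −0.04 ± 0.08 and 0.06 ± 0.10.

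Markers of some cells other than muscle fibers were at higher levels in the HET libraries. Of 15 macrophage markers, all 15 were above 0 in HET mice (median log2 fold change 1.39), 5 passed the adjusted threshold with edgeR, and their summed level was between 96.2 and 137 CPM in HET and between 53.2 and 60.1 CPM in WT mice. Of 15 markers of fibroblasts and fibro-adipogenic progenitors, all 15 were above 0 and 1 passed, with sums between 2948 and 4142 CPM in HET and between 1414 and 2263 CPM in WT mice. Of 10 tenocyte markers, all 10 were above 0 and 0 passed, with sums between 409 and 736 CPM and between 132 and 328 CPM. Over all genes tested, 0.143% passed with higher levels in HET mice, and 54.4% had a log2 fold change below 0. No marker of these lists was at 0 in all libraries. Their part in the values of the complex I members was not tested. Fast fiber markers were below 0 in 11 of 12 genes with a median of −0.17, slow fiber markers in 8 of 10 with a median of −0.08, and 0 of either passed the threshold. With each library scaled to 30 sarcomere genes, the median over the members was −0.09 and that over all genes tested 0.06. This is a distance of −0.15, against −0.14 with the TMM factors. A scaling factor moves all genes of a library alike, so this distance cannot show whether tissue make-up plays a part.

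The transcript levels of the members differed widely, although the complex holds most of its subunits in equal number. Levels were compared per length, as CPM per kilobase of the exons counted. In WT mice the highest was *Ndufb9* with 613 ± 32.0 CPM per kilobase (SD, n = 3). *Ndufa4* was also near the top with 262 ± 28.2, below *Ndufb9* by more than their SDs. *Ndufv1* (231 ± 5.57), *Ndufa8* (229 ± 7.72) and *Ndufb10* (225 ± 20.2) followed and lay within an SD of each other. The lowest were *Ndufs5* with 3.25 ± 1.89, *Ndufab1* with 6.26 ± 0.258 and *Ndufa4l2* with 8.39 ± 1.10, so that the levels spanned 188-fold. The lower end of this span rests on *Ndufs5*, which had between 53 and 131 reads per mouse. In HET mice the same genes were at 547 ± 54.6 and 224 ± 33.2 at the top and at 2.73 ± 1.38, 5.54 ± 0.258 and 8.80 ± 1.95 CPM per kilobase at the bottom.

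The length used changes this order. The exons counted include those of every annotated isoform, which for *Ndufs1* amount to 8086 bases, against 2661 bases in its principal transcript. Per kilobase of the principal transcript the levels spanned 144-fold, *Ndufs1* moved from rank 22 to rank 6 of 39, and the highest were *Ndufa4* (592 ± 63.9 CPM per kilobase) and *Ndufb9* (567 ± 29.6), which were within an SD of each other. *Ndufs5*, *Ndufa4l2* and *Ndufab1* were the lowest by either length. Spearman's rho between the 2 orders was 0.754 across the 39 members.

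**Figure D5:**
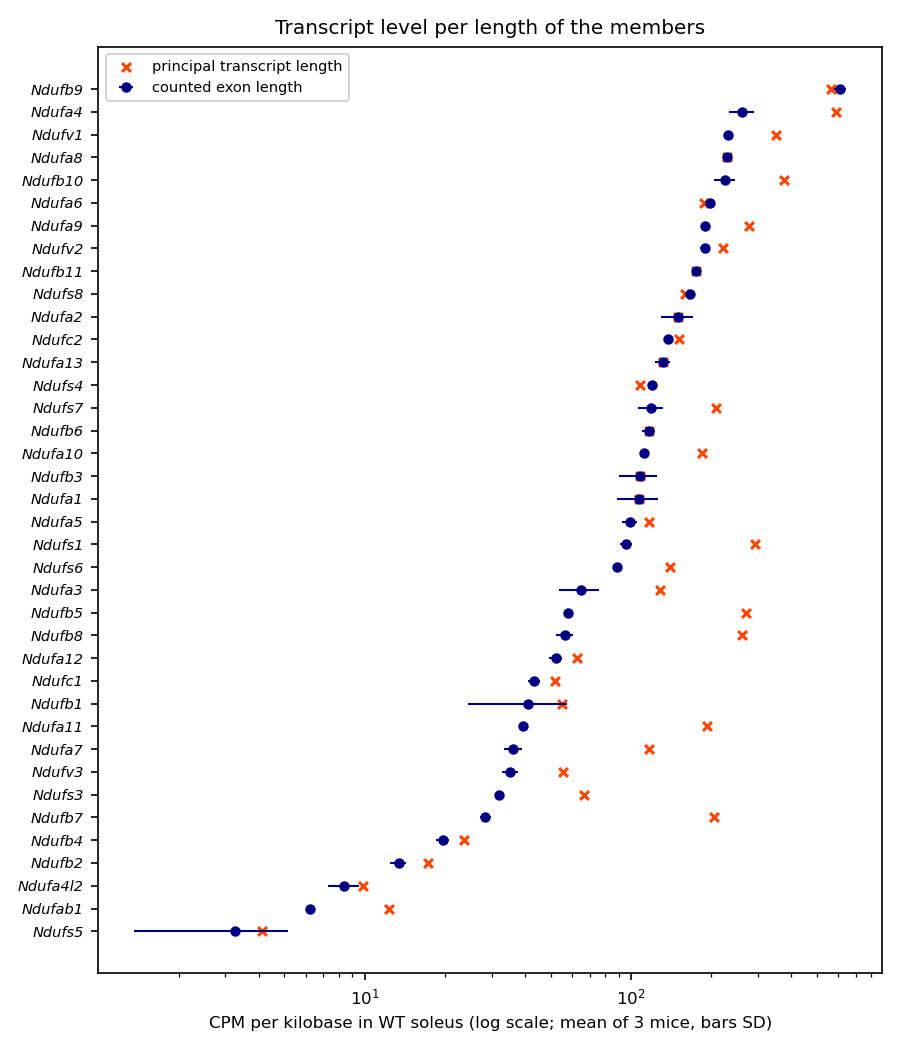
Each of the 38 rows is a tested member, sorted by its mean CPM per kilobase of counted exons in the 3 WT mice (points, with SD bars, log axis), and crosses give the level per kilobase of the principal transcript. *Ndufb9* and *Ndufa4* are near the top and *Ndufs5* at the bottom, and the cross lies far from the point where the counted exons are much longer than the principal transcript.

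The level of *Ndufs5* was very low. Its transcript has a partial sequence copy, and how far this lowers its level was not tested. Of the windows of 50 bases in its GENCODE M21 transcript, the length of a read, 31.1% occur exactly in the processed pseudogene *BC002163*, which had between 21 and 39 reads per library. The start of its coding sequence is shown because all 11 windows in it are shared with that pseudogene, with the start codon in capitals:
Ndufs5 (coding bases 1 to 60): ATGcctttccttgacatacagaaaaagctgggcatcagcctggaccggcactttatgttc

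A read from such a window matches more than 1 place and is left out of the counts, in all 6 mice alike. Of the 39 tested members, 14 shared at least 1 window with an annotated pseudogene and 14 shared 10% or more of their windows with some other annotated gene, in part genes at the same place in the genome. The shares were 39.7% for *Ndufs3* and 26.2% for *Ndufa12*, whose pseudogene is *Ndufa12-ps*, and reads from windows copied elsewhere can be missing from their counts. Per kilobase of counted exons in WT mice, *Ndufs3* was at 32.0 CPM and *Ndufa12* at 52.1 CPM, against 3.25 CPM for *Ndufs5*. The search covered annotated transcripts, and copies in unannotated sequence were not looked for.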

How the data were processed

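Soleus RNA of 3 HET and 3 WT mice was measured by sequencing, 1 library each. Per the file headers, the authors obtained their deposited raw counts per gene from featureCounts 2.0.3 in reverse-stranded mode, leaving out reads that align to several places, after alignment with STAR 2.7.3a to GRCm38.p6. The deposited normalized signal is the raw count divided by 1 size factor per library, between 0.773 and 1.42. It was used to choose the members. The authors' table of DESeq2 comparisons (fold changes and p-values) was not used, and 0 columns of values per mouse were left unmatched.

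All values were computed from the raw counts in R 4.3.3 with edgeR 4.0.16: genes kept by filterByExpr with a minimum count of 10, TMM factors, and the robust quasi-likelihood test with genotype as the only term over 14696 genes, two-sided, with Benjamini-Hochberg adjustment over all genes and a threshold of 0.05. The common biological coefficient of variation was 0.143. The standard error is the size of the log2 fold change over the square root of F. DESeq2 1.42.0 and limma 3.58.1 gave alternatives, as did other scalings, filters, trends and left-out mice. Steps were tested on simulated data. Plots were made in Python 3.11.15 with matplotlib 3.10.9. Nothing in the labels states that the mice were of separate litters. A p-value sets the difference between the genotypes against the variation between these mice, which is estimated in part from all genes tested.

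Members and lists were chosen with earlier results of these data known. The values of 1 member are not reported here singly, though it stays in all counts and medians over the members. The other members are named; values in each mouse are given for the nuclear core subunits, the 5 members with the smallest p, the 3 lowest and 3 highest log2 fold changes, members without overlap, the 3 highest and 3 lowest levels per length, and *Ndufa4*, *Ndufa4l2* and *Ndufab1*. *Ndufa1* and *Ndufa6* were added after their values were seen. Other genes are those at the ends of their list, with *Mustn1*, *Nnt*, *Xist* and Y-linked genes as checks; *Yy1*, *Nrf1*, *mt-Nd1* to *mt-Nd6*, *Myh7*, *Tnni1* and *BC002163* were added later. Satellite cell, endothelial, smooth muscle, adipocyte and erythroid markers were also listed, with 0 past the threshold. The principal transcript of a gene is that of GENCODE M21 with the best annotation level, then the longest. Copies of 50-base windows were searched in its transcripts. Promoters are those of RefSeq.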

Additional observations from a re-analysis of the deposited data

How the results depend on the processing

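No member passed the threshold under any alternative, with a lowest adjusted p of 0.201 (edgeR without the filter on low counts). The count of members below 0 was 22 without HET mouse 3, 23 when the length trends of the other libraries were removed as well (an alternative chosen after seeing the data), and up to 39 with another mouse left out. The median log2 fold change was −0.088 with total counts only, −0.091 with sarcomere scaling and −0.094 with the length trend removed (−0.10 with the replicate block in addition). With 1 mouse left out it lay between −0.21 and −0.024, and it was −0.023 without HET mouse 3 and the length trend.

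Over 22 alternatives and the 38 members whose values are given singly, direction was kept in 806 of 836 cases and turned in 30, of which 15 were without HET mouse 3. The alternatives reuse the same libraries, so these cases are not independent of each other. The sign turned with a mouse left out for *Ndufa1* (from −0.47 to 0.061), *Ndufa11* (from −0.28 to 0.052), *Ndufa2* (from −0.31 to 0.092), *Ndufa3* (from −0.40 to 0.083), *Ndufa4l2* (from −0.084 to 0.22), *Ndufa6* (from −0.32 to 0.030), *Ndufa7* (from −0.38 to 0.024), *Ndufa8* (from −0.21 to 0.013), *Ndufb1* (from −0.57 to 0.016), *Ndufb11* (from −0.15 to 0.0050), *Ndufb3* (from −0.26 to 0.021), *Ndufb7* (from −0.23 to 0.054), *Ndufs3* (from −0.20 to 0.065), *Ndufs5* (from −0.66 to 0.31), *Ndufs7* (from −0.24 to 0.084), *Ndufv1* (from −0.14 to 0.0094), *Ndufv3* (from −0.18 to 0.035). With total counts only the log2 fold change was 0.0041 for *Ndufa10*, 0.020 for *Ndufs7* and 0.0017 for *Ndufv1*, and with sarcomere scaling 0.0016 for *Ndufa10* and 0.014 for *Ndufs7*. With the GC trend removed it was −0.025 for *Ndufa4l2* (−0.025 with the replicate block), and with the length trend removed 0.015 for *Ndufa8* (0.011 with the block). The cause was not tested.

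The replicate numbers 1 to 3 occur in both genotypes. Deviations of same-numbered mice correlated at 0.203, −0.006 and −0.035, and those of differently numbered mice at between −0.137 and 0.133. The numbers were not taken as pairs, although a check on 3 mice per genotype cannot exclude pairing. With the replicate number as a block the median over the members was −0.18, with 38 below 0 and 0 past the threshold, while the calls over all genes rose from 22 to 116. Calls over all genes were 404 without the filter, 226 with DESeq2, 3 with limma-voom, 6 with non-robust dispersion, 7 with the GC trend removed and between 0 and 83 with 1 mouse left out. With the 250 bases before the start as the window, the ETS word was in 0 and the NRF-1 words were in 4 member promoters. *Ndufs5* had the fewest reads of the members, between 53 and 131 per mouse.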
